A study of Homo sapiens with 4 samples.

Results

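MALAT1, NEAT1, H19, PVT1, TUG1, MEG3, KCNQ1OT1, LINC-PINT, HOTAIR and NORAD are 10 long noncoding RNAs (lncRNAs) whose levels have been tied to cancer. They were chosen by name, and all 10 names were found among the 58174 gene rows of the deposited table, of which 15507 are lncRNA genes in GENCODE release 29. The table holds RNA sequencing of 2 established human pancreatic cancer cell lines, SW1990 and PANC-1, each left unirradiated or given an X-ray dose of 10 Gy. Each of the 4 groups has 1 library. SW1990 was grown in 1640 medium and PANC-1 in DMEM, both with 10% FBS, and all cells were at passages 14 to 16. No allele or transgene is named for any group, the line itself being the only genetic difference, and neither the interval between radiation and RNA extraction nor the number of cultures behind a library is given in the sources used here. The libraries held 17851815 (SW1990 unirradiated), 18305682 (SW1990 irradiated), 23323266 (PANC-1 unirradiated) and 20026595 (PANC-1 irradiated) counts on named genes.

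A lncRNA works as RNA and codes for no protein. MALAT1 and NEAT1 stay in the nucleus, at nuclear speckles and paraspeckles respectively. H19, KCNQ1OT1 and MEG3 are made from imprinted loci, where only the copy from one parent is normally active. HOTAIR, LINC-PINT and TUG1 have been described as partners of the Polycomb repressive complex PRC2, PVT1 lies next to the oncogene MYC, and NORAD holds the RNA-binding protein PUM2 in the cytoplasm.

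The sequences of MALAT1 and NORAD show features that bear on how they are measured and what they bind. MALAT1 has no ordinary poly(A) tail: RNase P cuts it in front of a small tRNA-like RNA, mascRNA, and its new end is an A-rich tract written in the gene. The 40 bases before the cut (GRCh38, chr11:65506077-65506116, plus strand, in the longest MALAT1 transcript, which is a single exon) are shown with that tract of 19 bases in capitals, followed by the 57 bases of mascRNA (chr11:65506117-65506173).
MALAT1 end: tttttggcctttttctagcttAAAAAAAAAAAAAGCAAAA
mascRNA: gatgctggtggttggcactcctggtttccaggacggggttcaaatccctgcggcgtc

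NORAD is a single exon of 5339 bases on chromosome 20 (36045622 to 36050960, minus strand), and the element that PUM2 binds recurs along it. The letters TGTANATA, read on the sense strand alone, occur 15 times in NORAD, of which 10 are TGTATATA, 4 are TGTAAATA and 1 is TGTACATA. Of 3863 GENCODE 29 transcripts of 5000 to 6000 bases, 44.6% hold the motif at all, the median holds 0, and 3 (0.0777%), NORAD itself included, hold 15 or more. No other of the 10 lncRNAs comes near that density: per kilobase of the longest transcript there are 2.81 in NORAD, 1.24 in HOTAIR (3 in all) and at most 0.268 in the remaining 8. Of the 15 windows 6 are shown, with the motif in capitals, to let the letters on either side be compared. These 6 were not drawn by a rule and do not stand for all 15. Windows not shown, such as those at 2039 and 2639, have other letters before the motif. The position is counted from base 1 of the transcript.
NORAD 1140 (chr20:36049806-36049829): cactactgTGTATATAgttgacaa
NORAD 2972 (chr20:36047974-36047997): ccctactgTGTATATAgcggacaa
NORAD 3593 (chr20:36047353-36047376): tgctactgTGTATATAatggaaaa
NORAD 1241 (chr20:36049705-36049728): tcacatttTGTAAATAcctttttg
NORAD 1825 (chr20:36049121-36049144): taccacttTGTAAATAtctttttg
NORAD 2466 (chr20:36048480-36048503): taacacttTGTAAATAgcttttaa
A match is a description of the letters and not of binding.

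H19 and MEG3 also have microRNA genes inside their rows. PVT1 (MIR1204, MIR1205, MIR1206 and MIR1207) and NEAT1 (MIR612) do as well, but their mature RNAs are not given here. The mature RNAs of H19 and MEG3, from RefSeq (GRCh38.p14), are given with the seed (bases 2 to 8) in capitals.
hsa-miR-675-5p (H19): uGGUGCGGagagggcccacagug
hsa-miR-675-3p (H19): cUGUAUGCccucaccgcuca
hsa-miR-770-5p (MEG3): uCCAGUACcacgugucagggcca
hsa-miR-2392 (MEG3): uAGGAUGGgggugagaggug
No seed was shared among them. Mature microRNAs are too short for these libraries. The row of the MIR675 hairpin held 1 count in every library, as did 311 rows of the table in all, and that of MIR770 held 0 in both SW1990 libraries, 2 in unirradiated PANC-1 and 9 in irradiated PANC-1. MIR2392 held 0 in every library. It lies inside the MEG3 gene row but before the MEG3 start region printed below.

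The 10 lncRNAs took 0.601% of the counts of unirradiated SW1990, 0.710% of irradiated SW1990, 1.10% of unirradiated PANC-1 and 1.28% of irradiated PANC-1. MALAT1 and NEAT1 together made up 67.4% and 68.9% of these counts in SW1990 (unirradiated, irradiated) and 93.4% and 93.8% in PANC-1. Levels of different genes are compared as FPKM (fragments per kilobase of gene, scaled to library size), the authors' values per length. The highest of the 10 in SW1990 was H19, at 525 and 678 FPKM (unirradiated, irradiated), where it ranked first among all lncRNA genes. In PANC-1 the highest was MALAT1, at 788 and 745 FPKM, where it ranked first in its turn. The lowest were MEG3 in SW1990, listed at 0 in both libraries, and KCNQ1OT1 in PANC-1, at 0.884 and 1.27 FPKM. Within unirradiated SW1990 the order was H19, MALAT1, NORAD, NEAT1, TUG1, PVT1, LINC-PINT, KCNQ1OT1, HOTAIR, MEG3, and it was the same after radiation. Within unirradiated PANC-1 it was MALAT1, NEAT1, PVT1, MEG3, TUG1, NORAD, LINC-PINT, HOTAIR, H19, KCNQ1OT1, and after radiation TUG1 and NORAD changed places. Most neighbours in these orders were apart by more than the 95% counting interval of each (Wilson, on the counts, which covers counting error alone). The exceptions were PVT1 (23.3 FPKM) and LINC-PINT (22.5 FPKM) in unirradiated SW1990, and MEG3 (37.9 FPKM) and TUG1 (35.8 FPKM) in unirradiated PANC-1.

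Of the 6 markers of ductal epithelium looked up, 6 reached 1 FPKM in unirradiated SW1990 and 5 in unirradiated PANC-1. KRT8, KRT18 and KRT19, keratins of ductal cells, stood at 1352, 944 and 224 FPKM in unirradiated SW1990 and at 786, 468 and 146 FPKM in unirradiated PANC-1. KRT7, a further ductal keratin, stood at 5.79 and 6.35 FPKM. The lines differed in the epithelial adhesion genes: CDH1 (E-cadherin) held 9906 and 14345 counts in SW1990 against 59 and 65 in PANC-1, and EPCAM held 7348 and 7552 against 108 and 113. VIM (vimentin), the mesenchymal filament gene, went the other way, with 17 and 0 counts in SW1990 and 82406 and 75166 in PANC-1. Of the other mesenchymal markers, ZEB1 held 14 and 66 counts in SW1990 and 1394 and 1084 in PANC-1, and FN1 held 0 and 25 in SW1990 and 8 and 9 in PANC-1. Of the 5 fibroblast markers, DCN and COL1A2 were at 0 counts in every library and LUM held at most 2. COL1A1 held 103 and 165 counts in SW1990 and 965 and 1315 in PANC-1, and PDGFRB held 129 and 63 in SW1990 and 0 and 3 in PANC-1. Of the 4 acinar and islet markers, CPA1, INS and GCG were at 0 in every library and PRSS1 held 12 and 8 counts in SW1990 and 0 in both PANC-1 libraries. PTPRC and CD3E, which mark leukocytes, and PECAM1, which marks endothelium, held at most 2 counts in any library. VWF, the other endothelial marker, held 14 and 50 counts in SW1990 and 2 and 4 in PANC-1. CD68, a lysosomal gene that also marks macrophages, held 31 and 37 counts in SW1990 and 967 and 583 in PANC-1. In bulk RNA, fewer cells of a type and less RNA per cell cannot be told apart, and the part of the lines' epithelial and mesenchymal programmes in the differences below was not tested.

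The comparison within each line asks what 10 Gy did to these RNAs. None of those compared was past 2-fold in either line. Fold changes are of counts scaled by TMM (edgeR's trimmed mean of log ratios), a gene being compared where it reached 1 FPKM in a library of the pair. With 1 library per group there is no test of a single line, and the intervals given cover counting error only. In SW1990, 0 of the 8 compared were past 2-fold, against a background of 7.9% of all 15731 genes compared and 17.3% of the 1779 lncRNA genes. MEG3 and HOTAIR were not compared there, because neither reached 1 FPKM, and HOTAIR, 3.08-fold lower there on 25 and 8 counts, would otherwise have been past the limit. In PANC-1, 0 of 10 were past 2-fold, against 7.76% of all 15159 genes and 15.8% of 1536 lncRNA genes. The median log2 change was 0.23 in SW1990 (6 higher, 2 lower) and -0.01 in PANC-1 (5 higher, 5 lower), beside 0.02 and -0.02 over all genes compared.

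NEAT1, the RNA scaffold of paraspeckles, was the member with the largest change in PANC-1. It held 19207 counts in unirradiated and 25200 in irradiated SW1990, and 58477 in unirradiated and 95103 in irradiated PANC-1. Its log2 fold change was 0.41 in SW1990 (0.39 to 0.44) and 0.83 in PANC-1 (0.82 to 0.85), where 88.5% of all genes compared changed less. On FPKM its levels were 43.7 and 54.7 in SW1990 and 103 and 197 in PANC-1. NEAT1 lies on chromosome 11 (65422774 to 65445540, plus strand) and is made as a short and a long form that begin at the same site. The counts divided by the FPKM and the library total imply a length of 24047 to 25179 bases in the 4 libraries. That ratio runs above the annotated length. For NORAD, which has 1 transcript of 5339 bases, it gave 6532 to 6671. It therefore cannot be set against the 22743 bases of the long form, and the deposited values give 1 row for both forms.

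MALAT1, the abundant nuclear speckle RNA some way downstream of NEAT1 (chromosome 11, 65497762 to 65506516, plus strand), held 53015 and 64349 counts in SW1990 (unirradiated, irradiated) and 182080 and 145937 in PANC-1. It was 1.23-fold higher in irradiated than in unirradiated SW1990 and 1.14-fold lower in irradiated than in unirradiated PANC-1. The log2 values were 0.30 (0.28 to 0.32) and -0.19 (-0.20 to -0.18). NEAT1 was thus higher after radiation in both lines and MALAT1 in SW1990 alone. A second row named MALAT1, of 95 bases, held 1 count in every library and was left out.

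H19, the growth-related imprinted RNA (chromosome 11, 1995163 to 2001470, minus strand), held 19384 and 24239 counts in SW1990 and 103 and 151 in PANC-1. Its log2 change with radiation was 0.34 in SW1990 (0.32 to 0.37) and 0.68 in PANC-1 (0.31 to 1.06), on FPKM 0.37 and 0.24. KCNQ1OT1 (chromosome 11, 2608328 to 2699994, minus strand), a single transcript of 91667 bases antisense to the potassium channel gene KCNQ1, held 3569 and 3376 counts in SW1990 and 2343 and 2922 in PANC-1, or log2 changes of -0.06 (-0.13 to 0.01) and 0.45 (0.37 to 0.53). MEG3 (chromosome 14, 100779410 to 100861031, plus strand), described as a growth suppressor, held 0 counts in both SW1990 libraries. That allows up to 0.168 CPM (counts scaled to library size) in the unirradiated and 0.164 CPM in the irradiated library, the worth of 3 counts. In PANC-1 it held 3688 and 3572 counts, a log2 change of 0.08 (0.02 to 0.15).

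LINC-PINT, a p53-induced RNA (chromosome 7, 130941760 to 131110176, minus strand), had the largest change in SW1990 among the members compared. It held 841 counts in unirradiated and 443 in irradiated SW1990, and 409 and 364 in PANC-1. Its log2 change was -0.90 (-1.07 to -0.74) in SW1990, where 90.4% of all genes compared changed less, and -0.04 (-0.25 to 0.17) in PANC-1. On FPKM the values were 22.5 and 16.5 in SW1990, a log2 change of -0.45. The length implied by the counts and the FPKM, a ratio that runs above annotated lengths as for NEAT1, went from 2089 to 1468 bases in SW1990. The count and the FPKM of this gene of 22 annotated transcripts thus do not measure the same change. HOTAIR (chromosome 12, 53962308 to 53974956, minus strand), made from the HOXC cluster, held 25 and 8 counts in SW1990 and 185 and 141 in PANC-1. Its log2 change was -1.62 in SW1990, with an interval from -2.98 to -0.43 that shows how few reads lie behind it. In PANC-1 it was -0.26 (-0.59 to 0.06) on counts and 0.32 on FPKM.

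PVT1 (chromosome 8, 127794533 to 128101253, plus strand) held 361 and 454 counts in SW1990 and 1683 and 1354 in PANC-1, for log2 changes of 0.35 (0.15 to 0.55) and -0.18 (-0.29 to -0.08). TUG1 (chromosome 22, 30970677 to 30979395, plus strand), a widely expressed RNA, held 2480 and 2750 counts in SW1990 and 3731 and 2763 in PANC-1, for log2 changes of 0.17 (0.09 to 0.25) and -0.30 (-0.37 to -0.23). NORAD, named for its activation by DNA damage, held 8327 and 9131 counts in SW1990 and 4914 and 4530 in PANC-1. Its log2 changes were 0.15 (0.11 to 0.20) and 0.01 (-0.05 to 0.07), and the PANC-1 interval included 0. That depended on the scaling, since the PANC-1 value was 0.10 with total counts and 0.09 on FPKM.

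The only test of radiation that the 4 libraries allow takes the lines as its pair of replicates. In edgeR's quasi-likelihood fit with line and treatment as terms, which leaves 1 residual degree of freedom, the radiation effect passed an adjusted p of 0.05 in 0 of 18180 genes, a background of 0%, and in 0 of the 10 lncRNAs. At an unadjusted p under 0.05 it passed in 833 genes, 2 of them NEAT1 and H19, each higher after radiation in 2 of 2 lines. The fitted log2 changes were 0.62 for NEAT1 and 0.49 for H19, each with an adjusted p of 0.936 (edgeR, Benjamini-Hochberg). DESeq2 passed 39 of the 7254 genes to which it gave an adjusted p on the same counts, NEAT1 among them (log2 0.63, adjusted p = 0.0437), the range of its adjusted p over the fits tried being 0.0437 to 0.936.

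The comparison between lines asks how the background of these RNAs differs before and after the dose, and 7 of the 10 were past 2-fold, where most lncRNA genes were too. In the unirradiated libraries that was against a background of 40.2% of 16626 genes and 56.3% of 1900 lncRNA genes. H19 and LINC-PINT were higher in SW1990, and MALAT1, NEAT1, PVT1, MEG3 and HOTAIR were higher in PANC-1. In the irradiated libraries 7 of 10 were past 2-fold too, against 39.7% of 16819 genes and 56.4% of 1927 lncRNA genes, LINC-PINT having dropped out and NORAD having come in. The median of the absolute log2 difference over the 10 was 1.54 unirradiated and 1.33 irradiated, beside 0.76 and 0.75 over all genes compared and 1.16 and 1.17 over lncRNA genes.

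H19 was 210-fold higher in SW1990 than in PANC-1 without radiation (log2 7.71, 7.43 to 8.01) and 166-fold higher after it (log2 7.37, 7.14 to 7.62). MEG3 was at least 1102-fold lower in SW1990 without radiation and at least 1152-fold lower after it, taking the floor of 3 counts per library for its 0 counts. HOTAIR was 6.63-fold and 17.0-fold lower in SW1990 (log2 -2.73 and -4.09), on 25 and 8 counts, and on FPKM the irradiated difference was log2 -5.04. PVT1 was 4.18-fold and 2.88-fold lower (log2 -2.06 and -1.53), MALAT1 3.08-fold and 2.19-fold lower (log2 -1.62 and -1.13), and NEAT1 2.73-fold and 3.65-fold lower (log2 -1.45 and -1.87). The gap between the lines was thus narrower after radiation for MALAT1 and PVT1 and wider for NEAT1. NORAD was 1.89-fold and 2.08-fold higher in SW1990 (log2 0.92 and 1.06), KCNQ1OT1 1.70-fold and 1.19-fold higher (log2 0.77 and 0.26), and LINC-PINT 2.29-fold and 1.26-fold higher (log2 1.20 and 0.33). TUG1 was closest between the lines, with log2 differences of -0.43 and 0.04.

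In the same fit the line effect passed an adjusted p of 0.05 in 43.6% of the 18180 genes and in 7 of the 10 lncRNAs. These were H19 (log2 7.54, adjusted p = 0.000760), MEG3 (adjusted p = 0.000804), NEAT1 (log2 -1.65, adjusted p = 0.00331), PVT1 (log2 -1.79, adjusted p = 0.00393), MALAT1 (log2 -1.37, adjusted p = 0.00592), NORAD (log2 0.99, adjusted p = 0.00594) and HOTAIR (log2 -3.30, adjusted p = 0.00800), all by edgeR with Benjamini-Hochberg adjustment and all with the same direction in 2 of 2 pairs. KCNQ1OT1 (adjusted p = 0.0769), LINC-PINT (adjusted p = 0.0786) and TUG1 (adjusted p = 0.411) did not pass. The libraries of a line share their culture medium, so line and medium cannot be told apart, and the p-values measure the spread between these 4 libraries, which may be technical.

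**Figure D1:**
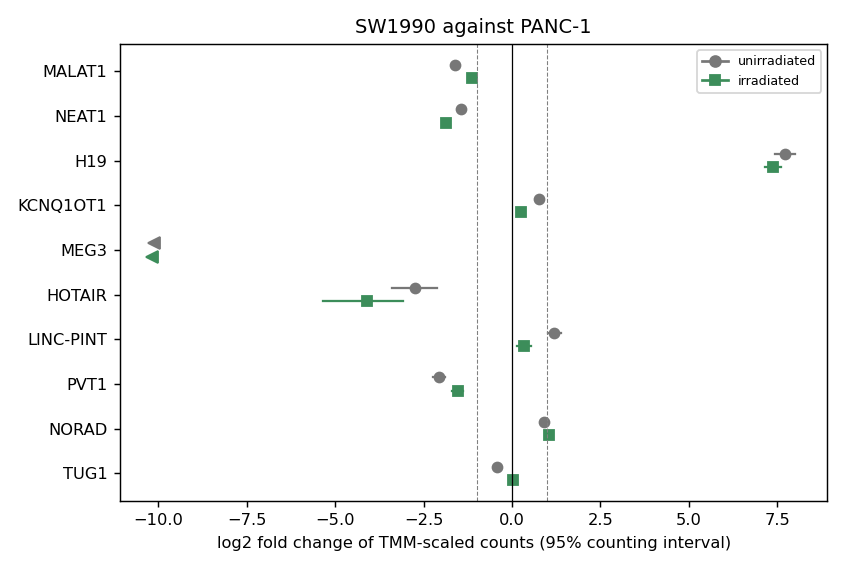
log2 fold change of each lncRNA in SW1990 against PANC-1, on TMM-scaled counts with 95% counting intervals, for the unirradiated (circles) and irradiated (squares) libraries. Triangles for MEG3 are bounds set by a floor of 3 counts in SW1990. H19 stands above 7 and MEG3 below -10, and TUG1 is at -0.43 and 0.04.

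RNAs without a poly(A) tail also differed between the lines. RN7SK, RN7SL1, RN7SL2, RMRP and RPPH1 were all lower in SW1990, with a median log2 difference of -0.63 unirradiated and -0.35 irradiated. Their summed FPKM was 124287 and 124975 in SW1990 and 153711 and 155673 in PANC-1, led by RN7SL1. These RNAs lie in the same direction as MALAT1 and NEAT1, whose differences were larger (log2 -1.62 and -1.45 unirradiated), and the part of library capture in that difference was not tested. With radiation the median over these 5 was 0.05 in SW1990 and -0.17 in PANC-1. Of the factors that process or decay nuclear lncRNA ends (RNase P proteins, ELAC2, the nuclear exosome, METTL16), 14 of 16 were found. With radiation 0 of these 14 were past 2-fold in either line, with medians of 0.04 and 0.00. The background was 7.9% of all genes in SW1990 and 7.76% in PANC-1. Between the lines DIS3, the exosome nuclease, was 2.79-fold higher in SW1990 and RPP25, an RNase P protein, 2.14-fold lower, both unirradiated. The remaining 12 factors were within 2-fold there, where 40.2% of all genes were past it.

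Of 18 neighbouring genes looked up, 15 were compared between the lines. Without radiation 2 were past 2-fold higher and 6 lower in SW1990, against a background of 40.2% of all genes. After it 3 were higher and 5 lower, against 39.7%. With radiation 2 of 12 were past 2-fold higher in SW1990 and 1 of 14 lower in PANC-1, against 7.9% and 7.76%. Those at the loci of the imprinted members come first. At the H19 locus, IGF2, the growth factor gene that shares H19's enhancers, held 33 and 209 counts in SW1990 and 886 and 400 in PANC-1. It was thus low in the line with much H19, 24.1-fold lower in unirradiated SW1990 than in unirradiated PANC-1, and the gap was 1.85-fold after radiation. IGF2 was 6.42-fold higher in irradiated than in unirradiated SW1990 and 2.02-fold lower in irradiated than in unirradiated PANC-1, where its FPKM went from 5.83 to 4.17, within 2-fold. At the MEG3 locus the lncRNA MEG8 followed MEG3, with 0 counts in both SW1990 libraries and 2569 and 2938 in PANC-1. The protein-coding genes of that locus, DLK1 and RTL1, held at most 2 counts in any library, the MEG3-expressing PANC-1 included. At the KCNQ1OT1 locus, KCNQ1 held 1061 and 899 counts in SW1990 and 0 and 2 in PANC-1, where its antisense RNA KCNQ1OT1 held 2343 and 2922. CDKN1C, a cell cycle inhibitor silenced in the same domain, held 64 and 70 counts in SW1990 and 44 and 63 in PANC-1. Near CDKN1C, PHLDA2 (log2 -0.73 unirradiated, -0.30 irradiated) and SLC22A18 (-0.33 and -0.34) were lower in SW1990 and within 2-fold. Next to NORAD, EPB41L1, a membrane skeleton gene, held 2605 and 3672 counts in SW1990 and 314 and 396 in PANC-1, the direction of NORAD's own difference.

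HOTAIR lies between HOXC11 and HOXC12, and the HOXC genes near it were higher in the same line. HOXC10 held 4 counts in each SW1990 library and 1207 and 1539 in PANC-1. HOXC11 held 17 and 15 counts in SW1990 and 263 and 349 in PANC-1, while HOXC12 held 0, 5, 6 and 11 in the order SW1990 unirradiated, SW1990 irradiated, PANC-1 unirradiated, PANC-1 irradiated. HOTAIR overlaps HOXC11, LINC-PINT overlaps the start of MKLN1 and KCNQ1OT1 lies within KCNQ1, each on the opposite strand. Whether reads were counted by strand is not given in the sources used here. The 17 annotated rows that lie inside members on the opposite strand, 33940 bases in all, held 56, 45, 0 and 4 counts in the same order of libraries. All of these counts in unirradiated SW1990 and most in irradiated SW1990 lay in rows inside KCNQ1OT1, on the strand of KCNQ1. The row AP000769.2, 396 bases antisense within MALAT1, held 0 counts in 3 libraries and 2 in irradiated PANC-1. For PVT1 the neighbour is MYC, with 94 and 505 counts in SW1990 and 78 and 45 in PANC-1. MYC was 5.45-fold higher in irradiated than in unirradiated SW1990, where PVT1 was 1.28-fold higher.

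**Figure D2:**
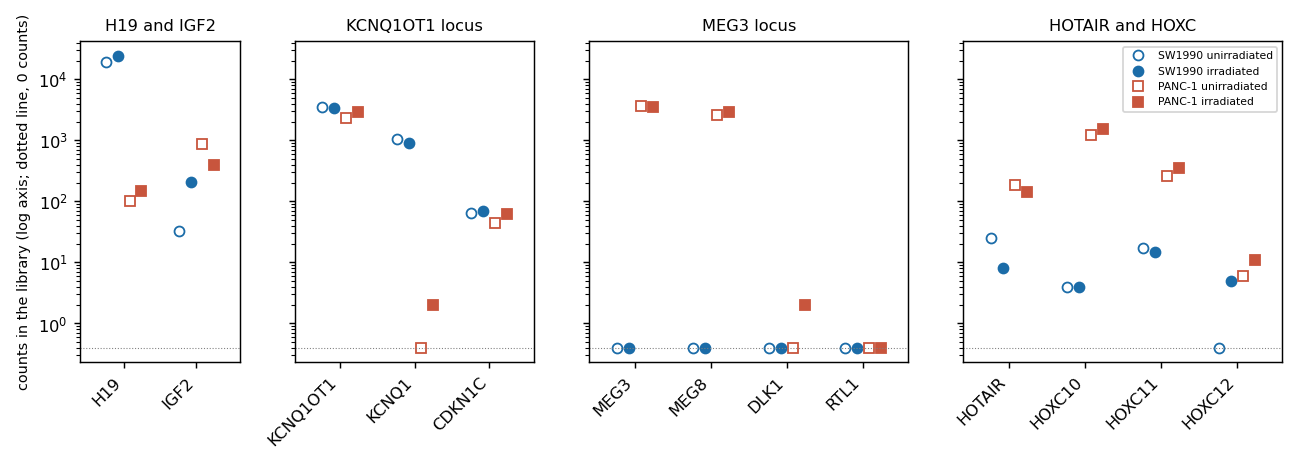
Counts per library (log axis) of 4 members and of genes at their loci, with circles for SW1990, squares for PANC-1, open symbols for unirradiated and filled for irradiated libraries; the dotted line marks 0 counts. MEG8 is at 0 where MEG3 is, KCNQ1 is near 0 in PANC-1 while KCNQ1OT1 is not, IGF2 is lower in the line where H19 is higher, and HOXC10 and HOXC11 are high where HOTAIR is.

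Since H19 and MEG3 differed most between the lines, their start regions are printed from RefSeq (GRCh38.p14; 250 bases before to 50 after a start, sense strand), with each CG in capitals. The RefSeq table matched 6 of the 10 by symbol. H19 (chr11:2001217-2001516, minus strand) has 6 CG and MEG3 (chr14:100825858-100826157, plus strand) has 19, where the median of 35116 promoters is 14 and 96.0% hold at least 1. Of all promoters, 33.7% have fewer CG than H19 and 57.1% fewer than MEG3. Methylation was not measured here.
H19: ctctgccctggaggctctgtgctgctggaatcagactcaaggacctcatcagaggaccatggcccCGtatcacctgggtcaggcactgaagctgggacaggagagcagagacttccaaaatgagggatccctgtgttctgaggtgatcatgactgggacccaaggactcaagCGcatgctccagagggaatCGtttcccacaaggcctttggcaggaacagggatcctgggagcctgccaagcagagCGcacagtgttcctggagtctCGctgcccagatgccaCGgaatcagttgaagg
MEG3: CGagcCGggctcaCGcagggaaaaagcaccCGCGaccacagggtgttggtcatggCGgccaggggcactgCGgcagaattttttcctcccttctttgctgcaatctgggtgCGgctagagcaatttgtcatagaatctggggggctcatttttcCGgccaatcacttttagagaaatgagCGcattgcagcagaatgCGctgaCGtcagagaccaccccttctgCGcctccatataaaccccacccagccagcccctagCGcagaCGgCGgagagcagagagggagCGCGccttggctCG

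None of the 12 paraspeckle proteins was past 2-fold with radiation in either line, against 7.9% of all genes in SW1990 and 7.76% in PANC-1. The 12 had median log2 changes of -0.18 in SW1990 (10 of 12 lower) and -0.16 in PANC-1 (9 of 12 lower), the reverse of NEAT1's sign. The largest were EWSR1 (-0.33 and -0.54) and TAF15 (-0.17 and -0.57), both RNA-binding proteins of the FET family, and TARDBP (0.17 and 0.52), followed by HNRNPK (-0.26 and -0.33). SFPQ, a core paraspeckle protein, held 9699 and 8137 counts in SW1990 and 9769 and 7276 in PANC-1, log2 changes of -0.23 and -0.29. Its partner NONO changed by -0.02 and -0.10. Between the lines, only SMARCA4 of these 12, a chromatin remodeller, was past 2-fold, against 40.2% (unirradiated) and 39.7% (irradiated) of all genes. SMARCA4 was 5.83-fold higher in unirradiated SW1990 and 6.10-fold higher in irradiated SW1990.

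None of the 10 nuclear speckle proteins was past 2-fold in any of the 4 comparisons. Of all genes compared, 7.9% (SW1990) and 7.76% (PANC-1) were with radiation, and 40.2% (unirradiated) and 39.7% (irradiated) between the lines. The medians of the speckle proteins with radiation were -0.18 in SW1990 and -0.07 in PANC-1. Furthest was PNISR in PANC-1, with 2874 counts unirradiated and 1426 irradiated (log2 -0.88). The splicing factors SRSF1 (-0.37 and -0.26) and PRPF6 (-0.27 and 0.26) and the speckle scaffold SON (-0.19 and -0.27) followed by the mean absolute change over both lines. Among the 11 PRC2 subunits 0 were past 2-fold with radiation, against the same 7.9% and 7.76% of all genes, with medians of -0.14 and -0.06. EZH2, the methyltransferase, held 1073 and 939 counts in SW1990 and 1185 and 938 in PANC-1, and AEBP2, an accessory subunit, was lowest after radiation (log2 -0.48 and -0.88). EED, a core subunit, changed by -0.17 and 0.61. PHF1, another accessory subunit, was the only one past 2-fold between lines, against 40.2% (unirradiated) and 39.7% (irradiated) of all genes. PHF1 was 3.13-fold lower in unirradiated SW1990 and 3.15-fold lower in irradiated SW1990. Of the NORAD partners compared, PUM2 held 3622 and 3399 counts in SW1990 and 2789 and 2252 in PANC-1 (log2 -0.07 and -0.18). RBMX changed by -0.28 and -0.43, while KHDRBS1 changed by 0.16 and -0.07.

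Beyond the 10, 39 of 40 further lncRNAs with links to cancer were found. In SW1990, 27 were compared with radiation, 2 were past 2-fold upward and 3 downward, close to the 17.3% of lncRNA genes in that comparison, with a median of -0.21. In PANC-1, 22 were compared, none was past 2-fold, where 15.8% of lncRNA genes were, and the median was -0.08. The larger ones in SW1990 were HCP5 (356 to 15 counts, log2 -4.55), an RNA of the major histocompatibility region, and OIP5-AS1 (2278 to 311 counts, log2 -2.85), a cytoplasmic RNA also called cyrano. On FPKM, HCP5 went from 6.65 to 0.716, and OIP5-AS1 from 17.1 to 9.29, which is within 2-fold. OIP5-AS1 held 2229 and 2055 counts in PANC-1. ZEB1-AS1 went from 62 to 27 counts in SW1990, and CBR3-AS1 (61 to 132) and LINC01133 (23 to 96), chosen after their values were seen, were the ones past 2-fold upward. HCP5 overlaps MICA on the same strand, which held 461 and 368 counts in SW1990, so reads of the pair may be split by the counting. Between unirradiated lines 14 of the 26 compared were past 2-fold, close to the 56.3% of lncRNA genes. HOTTIP, the HOXA counterpart of HOTAIR, held 694 and 783 counts in SW1990 and 0 in both PANC-1 libraries, the reverse of HOTAIR, and UCA1 held 1268 and 1259 in SW1990 and 0 and 2 in PANC-1.

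**Figure D3:**
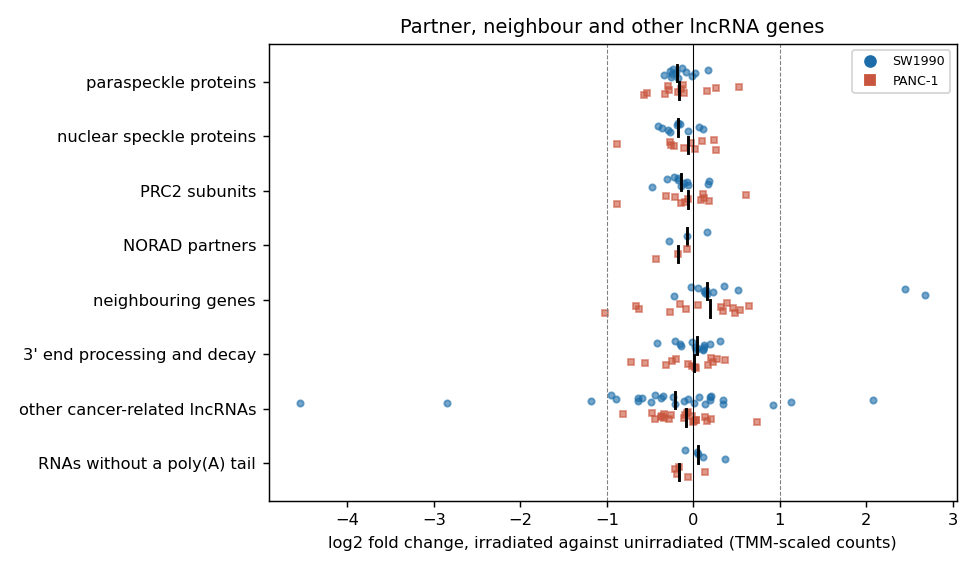
log2 fold change, irradiated against unirradiated, of the genes at 1 FPKM or more in the lists of partners, neighbours, other lncRNAs and RNAs without a poly(A) tail (cell type markers are not plotted), 1 point per gene, in SW1990 (circles) and PANC-1 (squares); black bars are medians and dashed lines mark 2-fold. The partner lists stay within the dashed lines in both lines, and the points beyond them in SW1990 belong to the neighbours IGF2 and MYC and to 5 other lncRNAs.

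For the 6 members with at least 10 counts in every library that spanned more than 2-fold over the 4 libraries, which leaves out MEG3 and HOTAIR, the genes of 5 FPKM or more with the most similar profile were searched by Euclidean distance of log2 CPM about each gene's mean, over 4 libraries and 9923 genes. With 4 points such likeness is a description, and all genes share the depth and scaling of each library. Closest to MALAT1 were AC022150.4, ATP6AP1 and TCEAL9 (distances 0.03, 0.03 and 0.06). NEAT1's nearest, CD151 at 0.18, was further off, followed by NLGN2 and MT-TE, and CD151, a tetraspanin of the cell surface, held 2290, 2524, 6578 and 10751 counts. Closest to H19 were TENM3, ALDH1L1 and CDH1, the E-cadherin gene (distances 0.27, 0.35 and 0.36). ALDH1L1 held 0 counts in unirradiated PANC-1, so its distance depends on how 0 was set. PVT1 lay nearest TPX2, a spindle assembly factor, at 0.06, then CEP57L1 and RCAN1. LINC-PINT lay nearest GAS8, SCLY and MIR222HG (0.12, 0.17 and 0.19), and NORAD nearest PARP4, NFXL1 and SEC23A (0.03, 0.05 and 0.06).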

How the data were processed

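RNA was extracted with Trizol, and 2 µg per sample went into libraries made with a VAHTS mRNA-seq kit, which the labels also call rRNA depleted. Per the submitters' processing notes the authors used Trimmomatic 0.36, HISAT2 2.0, StringTie 1.3.3b and DESeq2 1.12.4 with GRCh38, and the tool behind the counts is not given in the sources used here. The authors deposited whole-number counts and FPKM per gene for all 4 libraries in one table. Of 59263 rows, 1089 name no gene and stayed out of library sizes (0.487%, 0.453%, 0.545% and 0.635% of counts in SW1990 unirradiated and irradiated and PANC-1 unirradiated and irradiated). Names altered to dates were restored in 27 rows. Of the rows, 57836 have an identifier in GENCODE 29, 96.8% of them at the same coordinates.

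Counts were scaled by TMM. Fold changes set counts under 3 to 3, and their intervals are exact binomial (95%), those of levels Wilson, both covering counting error only, since reads carry no molecular identifiers. The test was edgeR 4.0.16 (R 4.3.3), quasi-likelihood, with filterByExpr. It and DESeq2 1.42.0 were tested on simulated data, whose outcome is not given here and is not used as support. The other alternatives were DESeq2 size factors, total counts, FPKM, all rows, no filter, a 1.5-fold limit, and a binomial test on the reads with q below 0.001, computed exactly on each gene's reads. The members and lists were chosen with earlier results of these data known. All 10 members are named. In each list up to 4 genes with the largest mean absolute radiation change were eligible by rule, and the other list genes were named for their locus, role or 2-fold difference after their values were seen. RNASEP1, MTREX and LINC00673 were not matched by name. A gene of the NORAD partner list is not reported here.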

Additional observations from a re-analysis of the deposited data

Results flagged for a closer look

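For 3 of the lncRNAs the irradiated library stood on opposite sides of the unirradiated one in the 2 lines by more than counting error. MALAT1 had a log2 change of 0.30 in SW1990 and -0.19 in PANC-1, PVT1 of 0.35 and -0.18, and TUG1 of 0.17 and -0.30. All 6 counting intervals excluded 0 with TMM scaling, but with total counts that of PVT1 in PANC-1 was -0.20 to 0.01 and included 0. KCNQ1OT1 also differed in sign (-0.06 and 0.45), but its SW1990 interval of -0.13 to 0.01 included 0 with TMM, while with total counts it was -0.18 to -0.05. With 1 library per line and treatment the difference between the lines was not tested.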

How the results depend on the processing

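With no filter on low values 1 of the 10, HOTAIR at 25 and 8 counts, was past 2-fold with radiation in SW1990 (background 13.3%). At a 1.5-fold limit 1 was past it in SW1990, LINC-PINT (background 19.1%), and 2 in PANC-1, NEAT1 and H19 (20.5%). DESeq2's Wald test called 1, NEAT1, for radiation where edgeR called 0, and gave HOTAIR and LINC-PINT no adjusted p. It passed 39 genes in all against 0. The count for the line effect was 7 in all 3 other fits, where 6105 of 30227 genes passed with no filter, 6124 of 17475 with DESeq2 and 7799 of 18180 with its size factors. Between unirradiated lines 8 were past 2-fold with total counts (NORAD added; background 41%) and 9 with FPKM (KCNQ1OT1 and NORAD added; 43.4%). Scaling by total counts moved the median of all genes in that comparison by 0.23 on the log2 scale, and the genes past 2-fold were then 4022 higher and 2798 lower in SW1990, with FPKM 4239 and 2974, where TMM gave 3269 and 3415. Of 37 member fold changes, 22 moved by more than their counting interval with total counts and 22 with FPKM. LINC-PINT in PANC-1 changed sign under both and HOTAIR in PANC-1 with FPKM, neither being past 2-fold. DESeq2 size factors and the unnamed rows moved none. With total counts all members of a comparison shifted by the same log2 amount, 0.23 between the unirradiated and 0.08 between the irradiated lines. With radiation the shift was -0.06 in SW1990 and 0.09 in PANC-1. A move there marks a counting interval narrower than the shift. Why the scalings and the FPKM differ was not tested. No library could be left out, because each group has 1 and the fit has 1 residual degree of freedom. The labels carry no replicate numbers, and the edgeR fit already compares treatments within each line. For low members, depth is the limit: HOTAIR in SW1990 and H19 in PANC-1 rest on 8 to 151 counts.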
